A study of Chlorocebus sabaeus with 45 samples.

Results

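A set of 8 genes was followed in whole blood of vervet monkeys because its members had been picked for large rises by day 14: PAQR9, TMCC2, IFIT1B, CTSE, HEMGN, GIPC2, ERICH2 and TNNI3. They are 8 of the 18752 genes tested and of the 33994 genes listed. All 8 passed the filter on low values, which required 3 or more libraries above 0.5 CPM, the fragment count relative to library depth. TNNI3 passed through days 3 and 14 alone, with 0, 4 and 6 libraries above that limit on days 0, 3 and 14, and CTSE with 5, 13 and 15. Since the rise to day 14 chose them, their changes between day 0 and day 14 are given as a description with no test. The same holds between day 3 and day 14, where GIPC2, HEMGN and ERICH2 had been picked from the top of the rises. A large rise to day 14 also favours low day 0 levels, which raises the change from day 0 to day 3, and that change is likewise given as a description. For the members, tests that are read as results were kept to the variation between animals. Genes of other lists and relatives of the members were also tested between days.

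Blood RNA of 15 juvenile male vervets (Chlorocebus sabaeus), born in the wild on St. Kitts, was sequenced at 3 time points, which gave 45 libraries. Day 0 (Tp1) samples were drawn in the field under ketamine and xylazine. Day 3 (Tp2) and day 14 (Tp4) samples came from the same animals in quarantine with individual housing, under dexmedetomidine and midazolam. The last time point is day 14 in the sample labels and day 15 in the design text of the series, and day 14 is used here. Sedation and place changed together after day 0, and their share in a difference from day 0 cannot be told apart. Days 3 and 14 shared both. No animals outside quarantine were analysed here on the later days, so time cannot be told apart from housing either. The same animals were also bled repeatedly, within a weekly limit that the paper set against anemia. This cannot be told apart from time. Levels are FPKM, fragments scaled to gene length and to the library's total on genes, and thus comparable between genes per length. Library depth ranged from 13216280 to 31469337 fragments, and the medians by day were 22963984, 22754349 and 22758495. Changes and correlations were computed on log2(FPKM + 0.1) after scaling between libraries by TMM (trimmed mean of M values).

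Red blood cells lose their nucleus late in their formation, and the youngest ones, reticulocytes, still carry RNA when they enter the blood. Whole-blood RNA therefore holds transcripts of hemoglobin synthesis, membrane skeleton and ion transport next to those of white cells and platelets. SLC4A1 encodes band 3, the anion exchanger that is a major protein of the red cell membrane, and it serves here as the reference red cell gene. In bulk samples, fewer cells of a type and less RNA per cell cannot be told apart, and the same holds for more cells and more RNA per cell.

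The 8 genes differ in how well they are known. HEMGN encodes hemogen, a nuclear protein of blood-forming and erythroid cells. PAQR9 encodes a membrane receptor of the progestin and adipoQ receptor family, and TMCC2 a transmembrane protein with coiled coils. IFIT1B is a close relative of IFIT1, an antiviral protein built of tetratricopeptide repeats. CTSE encodes cathepsin E, an aspartic protease known from the stomach and immune cells and also found at the red cell membrane. GIPC2 encodes a PDZ domain protein, ERICH2 a glutamate-rich protein of unknown function, and TNNI3 cardiac troponin I, the inhibitory subunit of the troponin complex of heart muscle. The label of little-known function thus suits some of them better than others.

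Their levels fell into 2 tiers. IFIT1B, PAQR9, HEMGN and TMCC2 were abundant, with medians on day 14 between percentiles 96.4 and 99.8 of the tested genes of a library. GIPC2, ERICH2, CTSE and TNNI3 were scarce, with medians on day 14 between percentiles 22.0 and 69.5. Together the 8 genes made up a median of 0.0627%, 0.186% and 0.383% of a library on days 0, 3 and 14.

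PAQR9 lay between 3.47 and 130 FPKM on day 0 (median 44.1), between 66.6 and 283 on day 3 (median 138) and between 85.7 and 543 on day 14 (median 323). On day 14, 13 of 15 samples were above every day 0 sample, and the groups met through animals 4 and 13. Its log2 rise to day 14 was 3.12, rank 5 of all tested genes, and it was higher in 14 of 15 animals. In that contrast 7.37% of the tested genes were higher in at least 14 animals. At an adjusted p under 0.05, 36.2% changed, 16.8% as higher and 19.4% as lower. This split rested on the scaling, and without TMM 7.81% were higher and 41.6% lower.

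TMCC2 ranged from 1.78 to 39.8 FPKM on day 0 (median 15.6), from 18.2 to 469 on day 3 (median 57.0) and from 25.5 to 348 on day 14 (median 91.4). Its highest value of all 45 libraries, 469 FPKM, was on day 3, in animal 6, and the days 3 and 14 overlapped widely. The log2 rise to day 14 was 3.08 (rank 6), of which 2.33 had been reached by day 3.

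IFIT1B was the most abundant of the 8, with 25.2 to 878 FPKM on day 0 (median 188), 67.0 to 2180 on day 3 (median 446) and 470 to 4446 on day 14 (median 1221). On day 14, 10 samples lay above every day 0 sample. Its log2 rise to day 14 was 3.01 (rank 9), and animal 13 was the exception, with a change near 0 from 409 to 470 FPKM.

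HEMGN was measured at 9.18 to 242 FPKM on day 0 (median 31.9), 16.1 to 362 on day 3 (median 75.0) and 60.8 to 778 on day 14 (median 193). Animal 7 was highest on each of the 3 days, and its day 0 value lay above 10 of the 15 day 14 samples, while the next highest day 0 value was 99.0 FPKM. Between day 3 and day 14 HEMGN was higher in 15 of 15 animals, by 1.85 on the log2 scale (rank 13 of the rises over that interval). At an adjusted p under 0.05, 7.17% of the tested genes were higher over that interval, and 0.731% were higher in all 15 animals.

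GIPC2 stayed low until day 3, with 0.263 to 6.75 FPKM on day 0 (median 1.65) and 0.268 to 6.98 on day 3 (median 1.54), and lay between 0.522 and 21.8 on day 14 (median 7.95). The first 2 days covered nearly the same range, and 9 day 14 samples were above all samples of day 0. The log2 rise was 2.40 to day 14 and 1.89 between day 3 and day 14 (rank 9 over that interval), in 15 of 15 animals in both, which 1.68% and 0.731% of the tested genes reached.

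ERICH2 had a similar course, from 0.321 to 3.42 FPKM on day 0 (median 1.09) through 0.584 to 3.52 on day 3 (median 1.72) to 2.34 to 7.27 on day 14 (median 5.86). With 12 of 15 day 14 samples above all of day 0 and likewise above all of day 3, it had the narrowest spread between animals on day 14, a standard deviation of 0.76 on the log2 scale. Its log2 rise was 2.33 to day 14 and 1.77 between day 3 and day 14, in 15 of 15 animals in both.

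CTSE lay near the lower end of detection, from 0 to 0.838 FPKM on day 0 (median 0.10, 6 fragments), from 0.0265 to 4.17 on day 3 (median 0.335, 21 fragments) and from 0.210 to 4.52 on day 14 (median 0.540, 40 fragments). Animal 6 stood far above the others on day 3, where the next highest sample had 1.75 FPKM. The log2 rise to day 14 was 2.21 (rank 150).

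TNNI3 was the scarcest, from 0 to 0.514 FPKM on day 0 (median 0.0516, 1 fragment), from 0 to 2.43 on day 3 (median 0.170, 3 fragments) and from 0 to 3.05 on day 14 (median 0.3001, 5 fragments). It was at 0 in 6, 5 and 1 libraries on days 0, 3 and 14, and its highest library held 62 fragments. Its log2 rise to day 14 was 2.04 (rank 228, higher in 12 of 15 animals), and on this scale the added 0.1 sets much of the size for a gene this low.

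**Figure D1:**
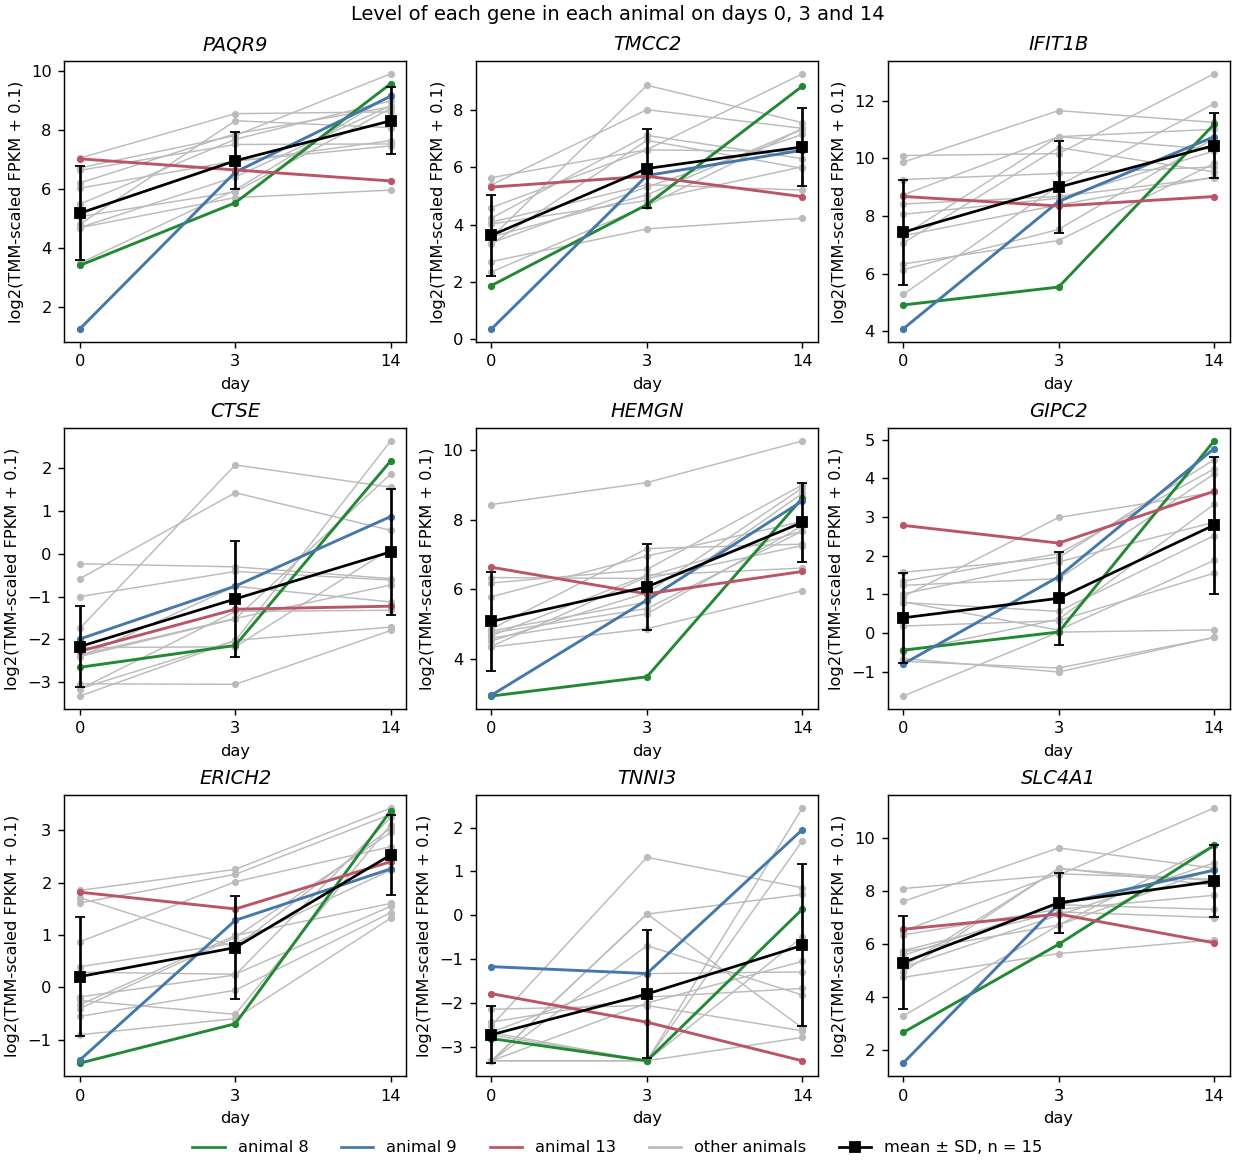
Level of the 8 genes and SLC4A1 in each of the 15 animals on days 0, 3 and 14, on the vertical axis as log2(TMM-scaled FPKM + 0.1), with the day on the horizontal axis. Lines join the samples of one animal, and black squares with bars are the mean ± SD (n = 15). Animal 9 (blue) starts lowest for PAQR9, TMCC2 and SLC4A1, animal 8 (green) rises mostly after day 3, and animal 13 (red) stays near its day 0 level for most genes.

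None of the 8 genes separated day 14 fully from day 0, which 0.0107% of the tested genes did. Over the 8, the median log2 change from day 0 to day 14 was 2.62, beside −0.05 over all tested genes, and between day 3 and day 14 it was 1.40 beside −0.05. Both contrasts chose the members, and nothing is read from these values. Without TMM the median of all tested genes moved to −0.36 on day 14 vs. day 0, and that of the 8 genes was 2.24.

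Between day 0 and day 3 the estimates of all 8 genes were positive. TMCC2 was higher in all 15 animals, by 2.33 on the log2 scale (SE 0.48). PAQR9 was higher in 14 animals, by 1.77 (SE 0.44), and IFIT1B in 14 animals, by 1.56 (SE 0.54). All 15 animals were higher for 1.31% of the tested genes and at least 14 for 3.82%. For CTSE and HEMGN the change was 1.11 and 0.99, with 13 animals higher for each, and for TNNI3 it was 0.93, with 8 animals higher and 5 lower. The smallest estimates were 0.55 for ERICH2, with 11 animals higher, and 0.50 for GIPC2, with 10.

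In the fit across all genes, TMCC2, PAQR9 and IFIT1B were past an adjusted p of 0.05 on day 3 vs. day 0, as were 12.4% of all tested genes, 5.95% as higher and 6.44% as lower. Nothing is read from that count, since the choice of the members used the day 0 samples and, for HEMGN, GIPC2 and ERICH2, those of day 3. IFIT1B was no longer past it without animal 1, 2, 3, 4, 5, 6, 7, 9, 11, 12 or 14, with 1 in place of 0.1 added, without the filter on low values and with RNA integrity numbers, higher on later days, as a covariate. With the animal as a replicate block, CTSE and HEMGN made the count 5, beside 19.4% of all tested genes, and with the block and the RNA integrity number together it was 3, beside 15.1%.

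SLC4A1 itself lay between 4.10 and 217 FPKM on day 0 (median 48.0), between 63.0 and 528 on day 3 (median 184) and between 75.5 and 1259 on day 14 (median 293). It was 2.25 higher on day 3 on the log2 scale (SE 0.51, 15 animals higher) and 3.06 higher on day 14, rank 5 and rank 7 of all tested genes, and so is itself among the genes with the largest rises.

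The change of each gene by day 3 was set beside that of SLC4A1 and beside the median of 42 other genes known from red cells and their precursors, in the same animals. The second comparison was added after the values had been seen, and both are a description, since members and reference were chosen with their rises known. SLC4A1 itself lay 1.01 ± 0.82 (SD, n = 15) above that median, whose mean change was 1.24.

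The order of a gene thus depended on the reference. PAQR9 differed by −0.48 ± 0.54 from SLC4A1 (SD, n = 15), lower in 13 animals, and by 0.53 ± 0.65 from the erythroid median, higher in 13. IFIT1B differed by −0.69 ± 0.77 from SLC4A1 and by 0.32 ± 0.71 from the median, higher in 9 animals. TMCC2 differed by 0.07 ± 0.73 from SLC4A1, with 8 animals higher and 7 lower, and by 1.08 ± 0.87 from the median, higher in 14.

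HEMGN, GIPC2 and ERICH2 lay below both references. Their difference from SLC4A1 was −1.26 ± 1.002, −1.75 ± 1.47 and −1.70 ± 1.17, and from the median it was −0.25 ± 0.38, −0.74 ± 0.94 and −0.69 ± 0.72, lower in 12, 11 and 13 animals. These 3 genes had been picked for their rise between day 3 and day 14, which favours a low day 3 value. For CTSE and TNNI3, the scarcest of the genes, the added constant set much of the difference. From SLC4A1, CTSE differed by −0.48, −1.14 and −1.81 with 0.01, 0.1 and 1 added, and TNNI3 by −0.80, −1.32 and −1.90. GIPC2 moved less, with −1.71, −1.75 and −1.88, as did ERICH2, with −1.64, −1.70 and −1.89.

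Set in order, the share of the log2 rise to day 14 that had been reached by day 3 was 75.5% for TMCC2, 73.6% for SLC4A1, 56.8% for PAQR9, 51.9% for IFIT1B and 50.3% for CTSE. It was 45.6% for TNNI3, 34.8% for HEMGN, 23.8% for ERICH2 and 21.0% for GIPC2. The order is a description, since HEMGN, ERICH2 and GIPC2, in the lowest places, were picked for their rise after day 3. The part of that choice in their places was not tested. Likewise as a description, PAQR9 (0.06), TMCC2 (0.02) and IFIT1B (−0.05) differed little from SLC4A1 in the log2 change from day 0 to day 14.

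**Figure D2:**
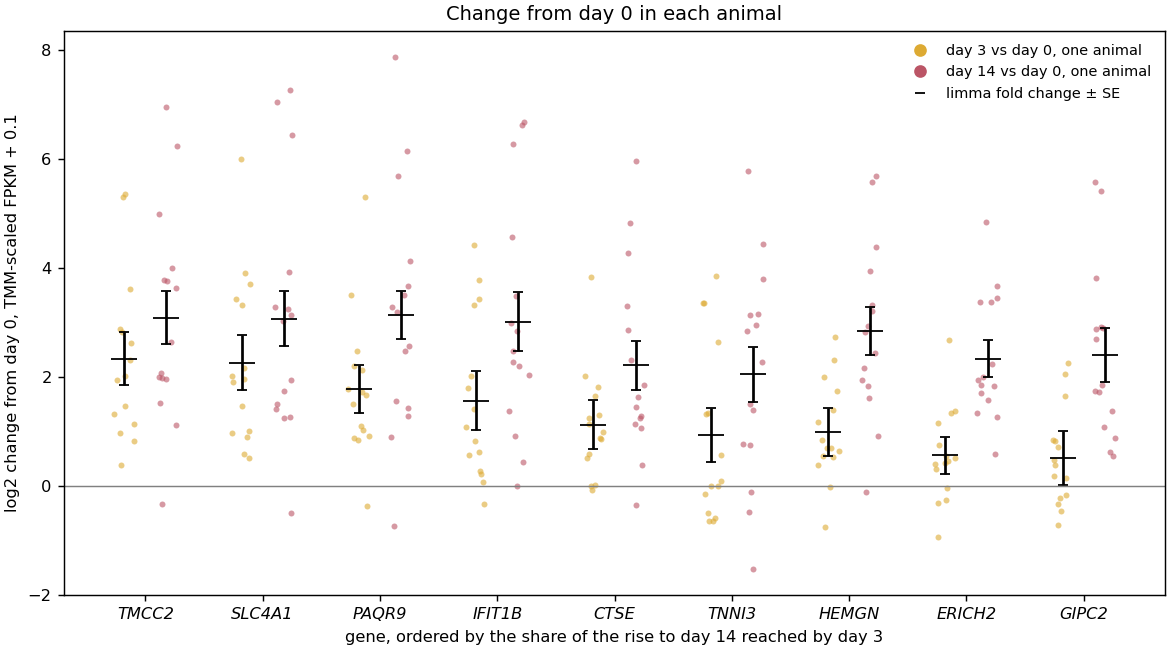
Log2 change from day 0 of the 8 genes and SLC4A1 on day 3 (yellow) and day 14 (red), one point per animal, with the limma estimate and its standard error in black (15 animals per day). Genes are ordered by the share of the rise reached by day 3, from TMCC2 (75.5%) to GIPC2 (21.0%), and most day 3 points of GIPC2 and ERICH2 lie close to 0.

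The animals differed in course. Animal 13 had only 3 of the 8 genes higher on day 14 than on day 0, with a median log2 change of −0.06, and it had the lowest change of all animals for 6 of them. Its PAQR9 level, 130 FPKM, was the highest on day 0 and fell to 89.1 on day 14, while its GIPC2 went from 6.75 to 14.4 FPKM. Animals 9, 8 and 14 had the largest median changes over the 8 genes, 5.57, 5.54 and 4.71.

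Animal 9 had the lowest day 0 levels of PAQR9, TMCC2, IFIT1B and SLC4A1 and had reached 117 FPKM of PAQR9 by day 3. Animal 8 moved later: its IFIT1B went from 36.4 FPKM on day 0 to 67.0 on day 3 and 1323 on day 14, and its HEMGN from 9.18 to 16.1 and 224. Neither pattern was tested, since the animals were singled out after their values were seen.

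Within a day, the variation between animals does not use the mean change that chose the genes. Correlations of log2 values over 15 animals were tested by two-sided permutation with 100000 resamples and adjusted over 24 tests for SLC4A1 and over 84 for the 28 pairs of members. The smallest p these permutations can give is 1e-05. With SLC4A1, 5 of 8 genes correlated on day 0, 7 on day 3 and 7 on day 14, all positively. For all tested genes the median r with SLC4A1 was −0.0416, −0.0175 and −0.106 on the 3 days, and 5% of them exceeded 0.673, 0.723 and 0.782. Some members passed with an r below that level. They were ERICH2 and TNNI3 on day 3, and CTSE, ERICH2, TNNI3 and, by a small margin, HEMGN on day 14. The share of all tested genes that would pass the same test was not computed.

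By Pearson r, PAQR9 followed SLC4A1 most closely of the 8 on days 3 and 14 and came after TMCC2 on day 0, while by rank HEMGN was closest on day 14. PAQR9 had an r of 0.945, 0.944 and 0.943 on days 0, 3 and 14 (rho = 0.961, 0.932 and 0.893, permutation p adjusted 4e-05 for each r). Without the 2 animals farthest from the median of SLC4A1, r was 0.891, 0.925 and 0.934. The median r of 42 other genes known from red cells and their precursors with SLC4A1 was 0.898, 0.824 and 0.910, so that PAQR9 lay above the middle of that list on each day.

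TMCC2 correlated at r = 0.967, 0.893 and 0.888 (rho = 0.986, 0.904 and 0.843) and IFIT1B at 0.944, 0.861 and 0.892 (rho = 0.914, 0.836 and 0.886), each with an adjusted permutation p between 4e-05 and 1.44e-04. HEMGN was lower, at 0.847, 0.740 and 0.782 (rho = 0.764, 0.632 and 0.929, largest adjusted permutation p of r 0.00168), and ERICH2 at 0.788, 0.603 and 0.703 (rho = 0.700, 0.550 and 0.746, largest 0.0234). Without the 2 farthest animals the r of these 4 genes stayed between 0.640 and 0.932. ERICH2 depended on the scaling: without TMM its r was 0.713, 0.395 and 0.357, and only the first passed the adjusted permutation test. HEMGN was also lower without TMM, with r = 0.795, 0.602 and 0.610, and still passed on each day (largest adjusted permutation p 0.0240). Both genes of a pair are divided by the same TMM factor, and its part in r was not tested.

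CTSE did not correlate with SLC4A1 on day 0 (r = 0.307, rho = 0.307, adjusted permutation p = 0.291), when its median library held 6 fragments. It did on day 3 (r = 0.832, rho = 0.854) and day 14 (r = 0.765, rho = 0.739, adjusted permutation p = 1.07e-04 and 0.00144). Without the 2 farthest animals these were 0.716 and 0.744.

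TNNI3 had r = −0.503 on day 0 (rho = −0.262, adjusted permutation p = 0.0644), with 6 libraries at 0 and none above 7 fragments. On that day its level correlated at −0.781 with the library's depth, beside 0.458 for SLC4A1. On day 3 its r with SLC4A1 was 0.674 (rho = 0.677, adjusted permutation p = 0.00825) and on day 14 it was 0.676 (rho = 0.636, 0.00713), and r with depth was then 0.000992 and −0.248. Without the 2 farthest animals these fell to 0.574 and 0.452.

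GIPC2 was the member that did not pass on any day, with r = 0.503, 0.214 and 0.266 (adjusted permutation p = 0.0644, 0.442 and 0.353). Without the 2 farthest animals r was 0.380, 0.515 and 0.276. By rank it passed on day 0 alone (rho = 0.589, adjusted permutation p = 0.0293). Whether its r differed from that of the other members was not tested.

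**Figure D3:**
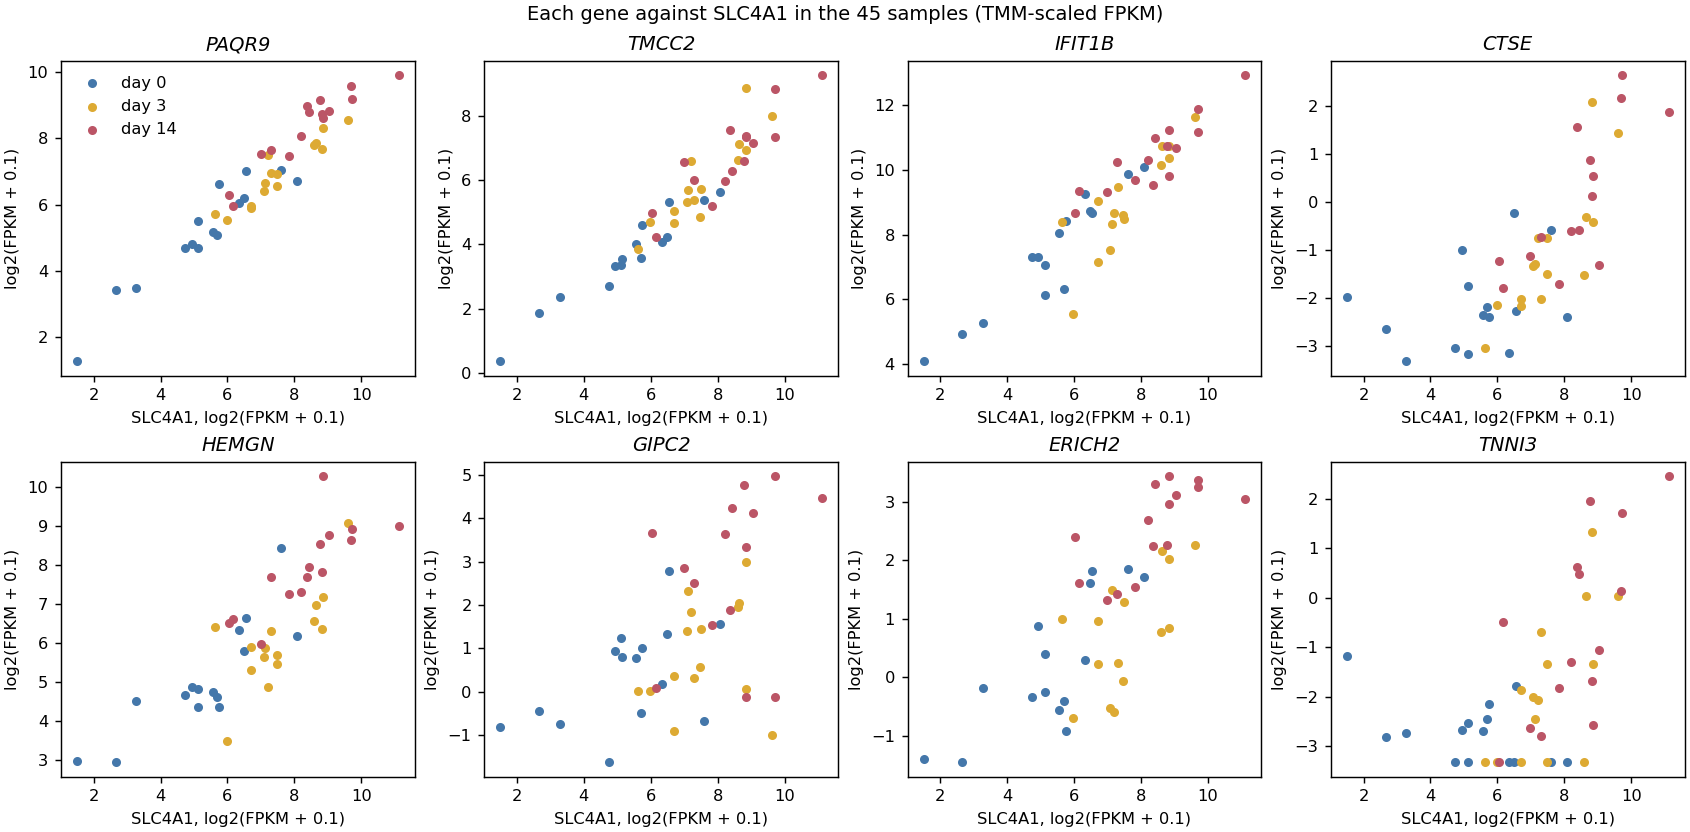
Each of the 8 genes (vertical axes) against SLC4A1 (horizontal axes) in the 45 libraries, both as log2(TMM-scaled FPKM + 0.1), coloured by day. PAQR9, TMCC2 and IFIT1B lie along a line through all 3 days, while HEMGN, ERICH2 and GIPC2 on day 14 lie above day 3 samples of like SLC4A1 level, and TNNI3 has a row of libraries at 0.

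Of the 28 pairs among the members, 11 correlated on day 0, 14 on day 3 and 17 on day 14, all positively, with a median r of 0.488, 0.574 and 0.652. The median r of a member with the other 7 was set beside the r that 5% of all tested genes exceeded with the same member. It lay above that level for 5 members on day 0, PAQR9, TMCC2, IFIT1B, HEMGN and ERICH2, for TMCC2 and CTSE on day 3, and for CTSE alone on day 14 (0.674 beside 0.643). On day 14 it was, for example, 0.738 beside 0.785 for PAQR9 and 0.657 beside 0.697 for HEMGN. A single pair could pass below that level, as PAQR9 and TNNI3 did on day 3 (0.599, beside 0.720 for PAQR9 and 0.632 for TNNI3). The share of all gene pairs that would pass the same test was not computed. The counts of correlated pairs rested on the scaling on the later days: without TMM they were 11, 9 and 7. The TMM factor itself, which fell from a mean of 1.13 on day 0 to 0.867 on day 14, correlated with the 8 levels at a median r of −0.713, −0.748 and −0.807, and its part in the pairwise values was not tested. Without the 2 animals farthest from the median, 9 pairs passed on day 3 and 11 on day 14.

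PAQR9 and TMCC2 were the closest pair on day 0 (r = 0.975, rho = 0.975, adjusted permutation p = 1.4e-04) and on day 14 (r = 0.905, rho = 0.864, adjusted permutation p = 2.4e-04). On day 3 it was TMCC2 and CTSE (r = 0.941, rho = 0.893, adjusted permutation p = 1.4e-04), and without the 2 farthest animals r was 0.876. IFIT1B and HEMGN correlated at 0.840, 0.889 and 0.796 on the 3 days (rho = 0.804, 0.818 and 0.918), and HEMGN and ERICH2 at 0.858, 0.781 and 0.744 (rho = 0.846, 0.750 and 0.793). All 6 of these values passed the adjusted permutation test.

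GIPC2 correlated with 1 member, TMCC2 on day 0 (r = 0.607, rho = 0.607, adjusted permutation p = 0.0323), and with none on days 3 and 14, when its r with the other 7 lay between −0.0577 and 0.361. Leaving out 2 animals raised some of these low values and lowered others. Without the 2 animals farthest from the median of the partner, r on day 3 was 0.844 with TMCC2 (0.175 over all animals), 0.801 with CTSE (0.00621) and 0.643 with PAQR9 (0.336). On day 14, without the 2 farthest by the level of GIPC2, r with ERICH2 was 0.730 (0.204). Left out by GIPC2 on day 3, r was −0.084 with ERICH2 (0.196) and −0.014 with TNNI3 (−0.0105). Left out by the partner on day 14, r was 0.00522 with TMCC2 (0.332), 0.0531 with IFIT1B (0.136) and 0.315 with PAQR9 (0.361). In the pairs not named for a day it rose. With TNNI3, no member correlated on day 0 (r between −0.464 and 0.0843), while 4 did on day 3, PAQR9, TMCC2, IFIT1B and CTSE. On day 14 PAQR9 (r = 0.661, adjusted permutation p = 0.0178), IFIT1B (0.662, 0.0166) and CTSE (0.678, 0.0166) passed again, and TMCC2 did not (0.501, 0.0959).

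As a description, the level of SLC4A1 was removed from each gene by regression within a day and the remainders were correlated. PAQR9 and TMCC2 then had r = 0.731, 0.107 and 0.443 on days 0, 3 and 14. HEMGN and ERICH2 kept 0.582, 0.624 and 0.439 on the 3 days. TMCC2 and CTSE had −0.115, 0.793 and 0.431, and HEMGN and IFIT1B 0.234, 0.737 and 0.351. Values for HEMGN and GIPC2 were negative, −0.283, −0.329 and −0.421.

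**Figure D4:**
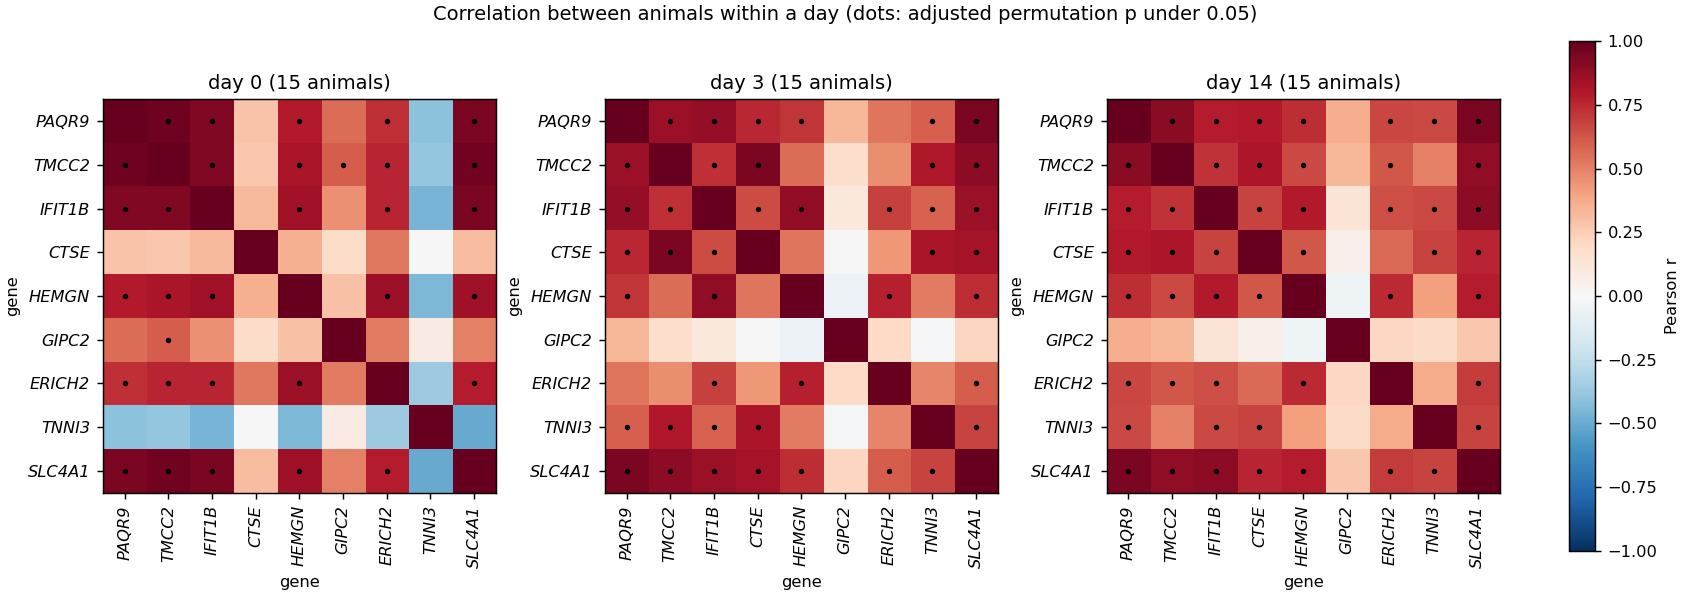
Pearson r between the 8 genes and SLC4A1 over 15 animals on day 0 (left), day 3 (middle) and day 14 (right), in colour from −1 (blue) to 1 (red). Dots mark pairs with an adjusted permutation p under 0.05. The row of GIPC2 is pale on days 3 and 14, and that of TNNI3 is blue on day 0 and red on day 3.

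For each gene, the 3 genes with the most similar variation between animals were taken from 10940 tested genes of at least 5 CPM, by the mean of the within-day r over the 3 days, as a description. Next to PAQR9 were SLC43A1, an amino acid transporter (mean r 0.960), KLF1, the erythroid transcription factor (0.957), and SLC25A39, a mitochondrial carrier (0.952). TMCC2 had SLC2A1, the glucose transporter of red cells (0.939), KANK2 (0.934) and TRIM15 (0.928). IFIT1B had SLFN14 (0.947), a gene with a LOC symbol (0.937) and TFDP2 (0.926), with SLC4A1 in place 15.

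HEMGN was closest to PAIP2 (0.919), PRPF18 (0.917) and ACP1 (0.911), and ERICH2 to PDCD10 (0.882) and to 2 genes with LOC symbols (0.853 and 0.833). For the scarce genes the values were lower. CTSE had ARHGEF37 (0.823), SLC22A16 (0.750) and PNP, a purine nucleoside phosphorylase (0.748). TNNI3 had KCNN4, the calcium-activated potassium channel of red cells (0.591), DNASE2 (0.529) and MARCH3 (0.516). GIPC2 had ACER3, an alkaline ceramidase (0.711), BNIP3, a mitochondrial protein of mitophagy (0.590), and YBX3 (0.580).

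The erythroid list moved in the same direction as the 8 genes. Of 43 tested genes of red cells and their precursors, 27 rose by day 3, none fell, and the median log2 change was 1.25. On day 14 vs. day 0, 42 rose and none fell (median 2.25), among them ALAS2, the first enzyme of heme synthesis (2.56), NCOA4, a carrier of ferritin to the lysosome (2.10), and BNIP3L, a mitophagy receptor of reticulocytes (2.11). Between day 3 and day 14, 13 rose. The summed level of the list had a median of 11793 FPKM on day 0 (2461 to 35564), 28387 on day 3 (10123 to 61530) and 55914 on day 14 (21119 to 72474).

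Of 10 tested transcription factors and cofactors of erythroid cells, 6 rose by day 3. On day 14 vs. day 0, 7 rose, including KLF1 (2.67), GATA1 (1.70) and NFE2 (0.96), LDB1 fell (−0.25), and the change of LMO2 was 0.07 (adjusted p = 0.848 from limma). HEMGN is counted as a member and not in this list.

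White cell and platelet genes moved as well, and their part in the members' values was not tested. Of 15 neutrophil genes 8 fell by day 3 and 14 by day 14, with summed levels of 1955 to 35450 FPKM on day 0 and 576 to 4255 on day 14. All 12 platelet genes rose by day 3 and 4 were still above day 0 on day 14. Among 9 monocyte genes 3 were lower on day 14, as were 2 of 7 B cell genes, while 1 of 9 T cell genes and 4 of 6 NK cell genes were higher. Without TMM the T cell genes turned on day 14, with 3 lower and none higher, 15 neutrophil, 4 monocyte and 6 B cell genes were lower, and 2 platelet genes were higher. For correlations within a day, the level of a list was the mean log2 level of its tested genes, not their sum. The median r of the 8 genes with the neutrophil level was 0.389, 0.103 and 0.496, and with the monocyte level 0.389, 0.101 and −0.137. With the platelet level the median r was 0.398, 0.211 and 0.561, and with the NK cell level 0.0938, 0.127 and −0.160. It was negative with the B cell level, −0.643, −0.628 and −0.494, and with the T cell level, −0.264, −0.168 and −0.263. With the erythroid level it was 0.810, 0.811 and 0.783.

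Relatives of the members, by family or by name alone, were compared over the same days. Of 9 tested relatives of PAQR9, 4 rose by day 3. They were PAQR5 (1.24, adjusted p = 0.00678 from limma), ADIPOR1, an adiponectin receptor (1.16, 0.0409), PAQR7 (0.73, 0.0252) and ADIPOR2, the other adiponectin receptor (0.32, 0.0122). Without TMM, PAQR5 and ADIPOR1 were the 2 that still passed. On day 14 ADIPOR1 was 2.32 higher than on day 0, from a mean of 745 ± 481 to 2421 ± 822 FPKM (SD, n = 15), and PAQR7 was higher by 0.60, while the other 7 did not pass. Without TMM the call of PAQR7 was lost and 4 relatives were lower. Of the 2 relatives of TMCC2, TMCC1 fell by 0.48 on day 3 (adjusted p = 0.0149 from limma) and by 0.75 on day 14, and TMCC3 changed by −0.50 (adjusted p = 0.0831). Without TMM the values on day 14 were −1.13 and −0.86, and TMCC3 passed as well (adjusted p = 0.00196 from limma).

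In the family of IFIT1B, its relative IFIT1, also its neighbour in the RefSeq annotation, was 1.62 higher on day 14 (adjusted p = 0.00312 from limma) and correlated with it at r = 0.519, 0.610 and 0.783 within the 3 days. IFIT2, IFIT3 and IFIT5 changed by 0.27, 0.41 and 0.24 on day 14 (adjusted p = 0.569, 0.484 and 0.254). Over 15 other interferon-induced genes, 2 rose on day 14, CMPK2 (2.39) and RSAD2 (1.99), and the median change was 0.04. Without TMM 2 rose and 3 fell. IFIT2 and IFIT5 changed by −0.13 and −0.15 without TMM, neither past the threshold. IFIT1 and IFIT1B are similar in sequence, and reads of one may have been counted for the other, so that the value of IFIT1 beside the more abundant IFIT1B is uncertain.

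Of 13 tested genes set beside CTSE, cathepsins by name and aspartic proteases, 3 rose by day 14. They were BACE2, another aspartic protease (2.30), and CTSL (0.91) and CTSB (0.81), which are cysteine proteases and share the name with CTSE but not the protease type. Without TMM these 3 still rose, and CTSD (−0.57), CTSH (−0.58) and CTSZ (−0.48) fell. Of 10 gastric genes, 9 had means under 0.05 FPKM on each day, and GKN1 had means of 5.22 FPKM on day 0 and 1.83 on day 14. The GIPC2 relatives GIPC1 and GIPC3 had means under 1 FPKM on every day and did not pass on day 14 vs. day 0. ERICH1 fell by 0.26 on day 14, and ERICH3 changed by −0.08.

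Around TNNI3, the partners of the heart troponin complex were also low. Its neighbour in the RefSeq annotation, TNNT1 of slow muscle, had a mean of 0.0333 FPKM and was not tested. TNNT2 of heart muscle had means of 0.142, 0.237 and 0.418 FPKM on the 3 days and was 1.14 higher on day 14 (adjusted p = 0.0262 from limma). TNNI2, the fast muscle relative of TNNI3, was more abundant, with means of 5.13, 6.38 and 7.13 FPKM, and was 0.78 higher on day 14 (adjusted p = 0.00241 from limma), a call that was lost without TMM (0.39, adjusted p = 0.115). TNNT3 had means of 1.20, 1.45 and 1.04 FPKM and did not pass. TNNC1 stayed at 2.68, 2.29 and 2.09 FPKM and did not pass. Of the other 12 striated muscle genes, the highest mean on any day was 0.157 FPKM, for MYBPC3 on day 0, and MYL3 (0.150 on day 3) and NPPA (0.111 on day 14) followed. Of all 14 genes of that list 5 were high enough to be tested, and TNNT2 rose and MYBPC3 fell on day 14.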

How the data were processed

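Per the labels, blood RNA was taken from PAXgene tubes, and stranded libraries depleted of ribosomal and globin RNA were sequenced as paired ends. The authors used STAR for alignment and HTSeq for counting, and the submitters' processing notes add bcl2fastq 2.17. The deposited values are FPKM, one table per sample. Of the values above 0, 99.9991% were whole fragments within 0.02, which gave depth, CPM and fragments. Genes with more than 0.5 CPM in at least 3 libraries were tested, a limit of 6.61 to 15.7 fragments. FPKM were divided by TMM factors, and limma 3.58.1 (R 4.3.3) was run on log2(FPKM + 0.1), with one mean per time point and Benjamini-Hochberg adjustment over 18752 genes, and checked on simulated data. Correlations and permutation tests used numpy 2.4.6 and scipy 1.17.1. The members and gene lists were chosen with earlier results of these data known. Beside the members, the rule named the 3 most similar genes, the most abundant genes of each list and all relatives. The genes named here follow it in part, and several relatives are given by count only. Each animal gave a sample on every day, and the animal number pairs them: after removal of the day means, samples of the same animal correlated at a mean r of 0.328 (45 pairs) and others at −0.0382 (945 pairs). Neighbours come from the RefSeq gene order of assembly mChlSab1.0.hap1, which is not known to be the build of the files. Alternatives were another added constant, no TMM, no filter, the animal as a block, the RNA integrity number, rank correlation and leaving out animals.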

Additional observations from a re-analysis of the deposited data

How the results depend on the processing

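Under the replicate block by animal, 5 members in place of 3 were past the threshold on day 3 vs. day 0, a count from which nothing is read, and 3635 of all tested genes were in place of 2323. With the block and the RNA integrity number together the counts were 3 and 2824. Leaving out each animal in turn gave 2 to 3 members. The median log2 change of the members then lay between 2.41 and 2.78 on day 14 vs. day 0 and between 1.15 and 1.52 on day 14 vs. day 3. The number of correlated pairs lay between 10 and 16 on day 0, 11 and 16 on day 3 and 14 and 18 on day 14. The number of members correlated with SLC4A1 lay between 5 and 6, 6 and 7, and 7 and 7. Correlated pairs fell from 14 to 9 on day 3 and from 17 to 7 on day 14 without TMM, and to 9 and 11 without the 2 samples farthest from the median, which also leaves fewer samples. With rank correlation they were 11, 11 and 14. The cause of the change without TMM was not tested. Without the 2 farthest samples, r changed sign in 8 of the 84 values for pairs, of up to 0.410 in size, none of which had passed. It also turned in 3 of the 24 values of the members between days, HEMGN between day 0 and day 14 among them (0.219 to −0.101). Without TMM 6 and 3 values turned, and by rank 5 and 2, again none that had passed, and no r with SLC4A1 turned. At a median of 1 to 6 fragments on day 0, TNNI3 and CTSE are limited by depth, and their log2 changes depend on the constant added: on day 3 vs. day 0 they were 0.29 and 0.38 with 1, and 1.46 and 1.78 with 0.01.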

Other observations

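Whether an animal kept its place among the 15 from one day to another was looked at after the values had been seen. For each of the 8 genes and SLC4A1, log2 levels were correlated between days over the 15 animals, with two-sided permutation tests adjusted over 27 tests. Between day 0 and day 3, HEMGN (r = 0.768, rho = 0.636), GIPC2 (0.708, 0.746), CTSE (0.690, 0.718) and ERICH2 (0.683, 0.643) passed, each with an adjusted permutation p of r of 0.0346. The adjusted p of rho was 0.0688 for HEMGN and ERICH2 and 0.0444 for GIPC2 and CTSE. For all tested genes the median r between these days was 0.295, and 5% exceeded 0.749, above the r of GIPC2, CTSE and ERICH2.

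Between day 3 and day 14, GIPC2 was the member whose r passed (r = 0.701, adjusted permutation p = 0.0346), but its rho did not (0.607, adjusted p = 0.0856). For all tested genes the median r was 0.259, and 5% exceeded 0.730. Without the 2 farthest animals the r of GIPC2 was 0.748, and without TMM it was 0.825. For SLC4A1 these days correlated at r = 0.264 (rho = 0.0143, adjusted permutation p of r 0.583). Animal 7 had the lowest GIPC2 level on days 3 and 14, 0.268 and 0.522 FPKM, while its HEMGN was the highest of all animals on the same days, 362 and 778 FPKM. Animal 13 had 6.75, 5.43 and 14.4 FPKM of GIPC2.

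Between day 0 and day 14, none of the 9 genes passed by r or rho, with r from −0.312 for PAQR9 to 0.484 for GIPC2. For all tested genes the median r between these days was 0.199.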
